A study of Mus musculus with 9 samples.

Results

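The genes described here encode the autophagy machinery: 37 genes, each chosen by its symbol and found in 1 row of a table of 23317 genes. They cover the ULK1 initiation complex (5 genes), the class III PI3-kinase complex and its regulators (6), the ATG9, ATG2 and WIPI proteins of membrane supply (5), the conjugation enzymes (6), the ATG4 proteases (4), the ATG8 proteins (5) and cargo receptors (6). RNA was measured in cells labelled as haematopoietic stem cells (HSCs), the marrow cells that give rise to all blood lineages. There were 3 groups of 3 libraries: HSCs of old wild-type mice with ABC294640, an inhibitor of sphingosine kinase 2 (treated old), HSCs of old wild-type mice (old), and HSCs of young wild-type mice (young). Ages of 20 to 24 months and 2 to 4 months are stated in the protocols and were taken as those of the old and the young groups by wording. Each library came from 1500 sorted cells. The labels give neither the surface markers used for sorting nor how, how much and how long ABC294640 was given. No label ties a library to its own animal, so the p-values measure the spread between these libraries, which may be technical.

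Autophagy carries cytoplasm to the lysosome in a membrane-bound vesicle, the autophagosome. The ULK1 kinase complex starts the process, the PI3-kinase complex marks the membrane with a phosphoinositide lipid, ATG9 vesicles and ATG2 lipid transfer proteins supply membrane, and a ubiquitin-like system attaches ATG8 proteins (LC3 and GABARAP) to the lipid, where they bind cargo receptors. In mouse HSCs, loss of genes of this system such as Atg7 is known to leave excess mitochondria and to impair stem cell function. The amount of mRNA measured here is not a measure of autophagic flux, since most of these proteins are regulated by phosphorylation, lipidation and turnover.

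Totals per library were 16663445 to 20014106 counts in treated old, 16724971 to 20966585 in old and 19451019 to 23254115 in young libraries, and the members had between 96 counts (Gabarapl1) and 9707 counts (Map1lc3b) in a library. Levels are CPM, counts scaled to library sizes that were adjusted by TMM. The 10 HSC markers examined summed to 410 to 414 CPM in treated old, 403 to 405 CPM in old and 490 to 497 CPM in young libraries, with Kit at 117 ± 1.68 CPM in treated old, 113 ± 2.80 CPM in old and 119 ± 4.56 CPM in young libraries but Procr at 3.19 ± 0.299 CPM in treated old, 2.54 ± 0.35 CPM in old and 3.89 ± 0.203 CPM in young libraries (SD, n = 3 each). Markers of other cells were present and moved with age: the 15 granulocyte and monocyte markers summed to 52714 to 54035 CPM in treated old, 52820.3 to 56208 CPM in old and 36216 to 40596 CPM in young libraries, with 8 higher and 4 lower in old libraries and none at 0. Mpo, the myeloperoxidase gene of granulocyte precursors, averaged 16291 ± 219 CPM in treated old, 16797 ± 194 CPM in old and 11260.1 ± 475 CPM in young libraries. With Procr this low beside Mpo, the cells are called HSCs here by their label. The erythroid markers summed to 1086 to 1094 CPM in treated old, 985 to 989 CPM in old and 1726 to 1771 CPM in young libraries, and those of megakaryocytes and platelets to 329.8 to 344, 259 to 286 and 494 to 532 CPM in treated old, old and young libraries. Summed B and plasma cell markers were at 637 to 663 CPM in treated old, 674 to 758 CPM in old and 338 to 382 CPM in young libraries. The Y-linked Ddx3y averaged 38.3 CPM in treated old, 38.9 CPM in old and 0.936 CPM in young libraries. Eif2s3y, also Y-linked, averaged 77.4, 78.1 and 2.55 CPM in the same groups. Age therefore cannot be told apart from the expression of Y-linked genes, nor from the sex of the mice if it differed. What is called an age difference below is the difference between old and young libraries. The part of these marker sums and of the Y-linked genes in the age results below was not tested. In bulk libraries, fewer cells of a type and less RNA per cell cannot be told apart.

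All 37 genes had counts in all 9 libraries and passed the filter on low counts. Group means had a median of 24.3 CPM in treated old, 25.9 CPM in old and 20.8 CPM in young libraries. The ATG8 genes Gabarap and Map1lc3b (LC3B) were the most abundant per length of the principal transcript. Gabarap had 199, 202 and 193 CPM per kilobase in treated old, old and young libraries, and Map1lc3b had 176 in treated old, 165 in old and 153 in young libraries. Gabarapl2, the mitophagy receptor gene Bnip3l and the conjugation enzyme gene Atg3 followed, at 68.4, 60.2 and 55.2 CPM per kilobase in young libraries. At the other end stood Atg2a, a lipid transfer protein gene, with 1.14, 1.19 and 1.17 CPM per kilobase in treated old, old and young libraries, next to Atg14 and Ambra1. Levels within the ATG8 family were far apart, as Gabarapl1 had 4.03, 3.59 and 5.67 CPM per kilobase in treated old, old and young libraries. The ranks depend on the length used: by the union of all exons, Wipi2 ranked 23rd in young libraries instead of 13th.

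**Figure D1:**
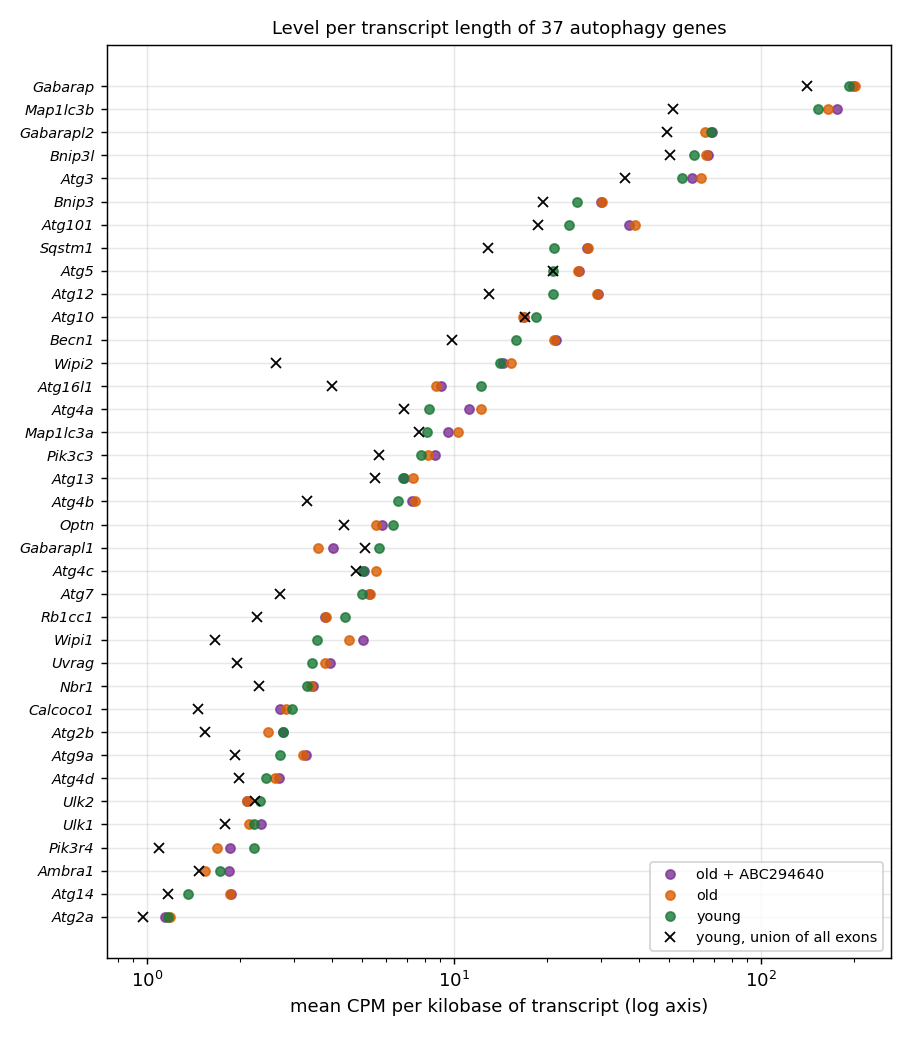
Mean level of each of the 37 genes in CPM per kilobase of principal transcript (horizontal log axis), with circles for treated old, old and young groups of 3 libraries and crosses for young libraries per kilobase of all exons. Gabarap and Map1lc3b stand at the top and Atg2a at the bottom, and the groups differ far less than the genes do.

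The comparison of old with young HSCs asks which autophagy genes differ with age. In it, 11 of 37 members were higher in old libraries and 3 were lower at an adjusted p under 0.05. Of all 14227 genes tested, 39.4% passed that threshold, 19.6% higher and 19.8% lower, against 37.8% of the members, 29.7% higher and 8.11% lower. The share of members called was thus close to that of all genes. The higher genes were Atg101, Becn1, Atg14, Wipi1, Atg3, Atg5, Atg12, Atg4a, Sqstm1, Bnip3 and Bnip3l, and the lower ones Pik3r4, Atg16l1 and Gabarapl1. Changes were small, with a median size of 0.40 on the log2 scale over these 14, against 0.43 over all genes called. The median log2 difference was 0.10 over the 37 members and -0.03 over all genes tested. Old libraries lay wholly above young ones for 10 members and wholly below for 4, against 22.8% and 25.6% of all genes. Tested against a fold of 1.2 instead of no change, 4 members were higher and 2 lower, and of all 14227 genes 898 were higher and 1347 lower. Without young replicate 1, 14 members were higher and 5 lower, against 2924 and 2636 of 14353 genes tested. Atg9a, Atg4b, Map1lc3a and Map1lc3b were added above, Rb1cc1 and Atg10 below, and Wipi1 was lost. A filter of 5 CPM in 3 libraries left 9 higher and 5 lower, against 2124 and 1980 of 9670 genes tested.

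**Figure D2:**
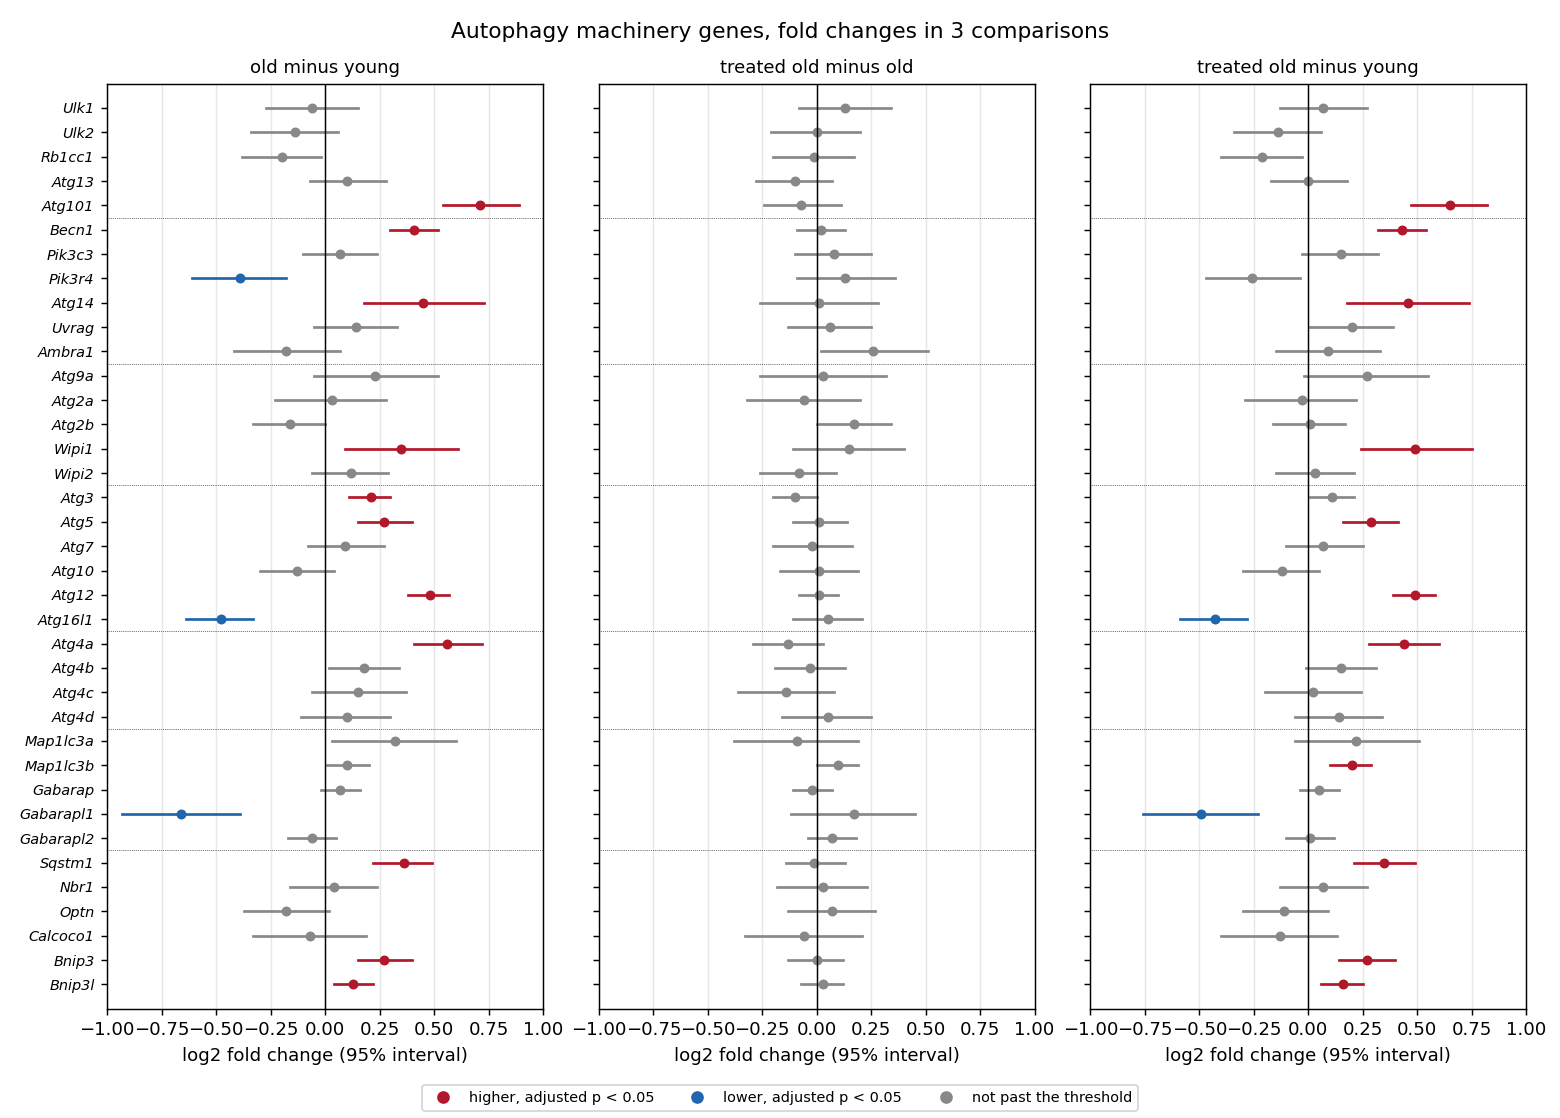
Log2 fold change of each of the 37 genes with its 95% interval (horizontal axis) in old minus young, treated old minus old and treated old minus young comparisons, ordered by role from the ULK1 complex to the cargo receptors. Coloured points passed an adjusted p of 0.05; the outer panels hold 14 and 13 of them and the middle panel none.

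Among the initiation genes only Atg101 passed the threshold in old against young libraries. ATG101 is a subunit that binds and stabilises ATG13 in the ULK1 complex. Atg101 (ENSMUSG00000037204, chromosome 15, 101284272 to 101290945, GRCm38 as for all positions) had 46.1, 49.7 and 45.3 CPM in treated old libraries, 51.4, 44.2 and 52.3 CPM in old libraries and 34.5, 28.3 and 27.0 CPM in young libraries. All old libraries, treated or not, were above all young ones, and the age difference of 0.71 ± 0.085 (log2, SE; edgeR adjusted p = 1.23e-06) was the highest of any member, a fold of 1.64. Its interval ran from 0.54 to 0.89. Ulk1, the kinase itself, had 12.0, 12.3 and 12.3 CPM in treated old libraries, 11.3, 10.4 and 11.9 CPM in old libraries and 12.4, 11.6 and 10.8 CPM in young libraries. Old and young libraries overlapped, with a difference of -0.06 ± 0.099 (log2, SE; edgeR adjusted p = 0.665). The log2 differences of the remaining subunits were -0.14 for the kinase gene Ulk2, -0.20 for the scaffold gene Rb1cc1 (FIP200) and 0.10 for Atg13, with adjusted p-values of 0.256, 0.0744 and 0.328.

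The PI3-kinase complex was split. Becn1 encodes beclin 1, the regulatory subunit that activates the lipid kinase VPS34. Becn1 (ENSMUSG00000035086, chromosome 11, 101285952 to 101302286) had 91.8, 95.8 and 92.7 CPM in treated old libraries, 93.0, 93.2 and 90.8 CPM in old libraries and 65.9, 68.6 and 73.9 CPM in young libraries. The old and treated old libraries formed a narrow band above the young ones, and the age difference was 0.41 ± 0.052 (log2, SE; edgeR adjusted p = 2.66e-06). Atg14, the subunit that brings the complex to sites of autophagosome formation, is a low-abundance transcript. Atg14 (ENSMUSG00000037526, chromosome 14, 47540893 to 47570649) had 6.91, 7.76 and 6.27 CPM in treated old libraries, 6.53, 6.70 and 7.53 CPM in old libraries and 5.31, 4.71 and 5.11 CPM in young libraries. Every old library was above every young one, with a difference of 0.45 ± 0.13 (log2, SE; edgeR adjusted p = 0.0105). Pik3r4, which encodes the VPS15 scaffold of the same complex, was lower instead. Pik3r4 (ENSMUSG00000032571, chromosome 9, 105642978 to 105687657) had 8.82, 8.93 and 8.73 CPM in treated old libraries, 7.35, 8.33 and 8.45 CPM in old libraries and 10.7, 10.6 and 10.4 CPM in young libraries. All old libraries, treated or not, were below the young ones, which lay close together, and old minus young was -0.39 ± 0.1 (log2, SE; edgeR adjusted p = 0.00537). The catalytic subunit gene Pik3c3 (VPS34) averaged 26.7 ± 2.54 CPM in old and 25.4 ± 2.35 CPM in young libraries, a log2 difference of 0.07 with an interval of -0.10 to 0.24 and an adjusted p of 0.538. Uvrag, which takes the place of ATG14 in the endosomal form of the complex, and Ambra1, a regulator of beclin 1, had log2 differences of 0.14 and -0.18 with adjusted p-values of 0.237 and 0.242. Exons of Becn1 overlap Cntd1 on the opposite strand, a gene at 1.15 CPM in old and 1.61 CPM in young libraries.

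Of the genes for membrane supply, Wipi1 was higher in old libraries. WIPI proteins bind the lipid made by VPS34. Wipi1 (ENSMUSG00000041895, chromosome 11, 109573331 to 109611967) had 9.92, 11.03 and 9.97 CPM in treated old libraries, 8.12, 9.38 and 10.4 CPM in old libraries and 6.43, 7.36 and 8.19 CPM in young libraries. Old and young libraries touched, as the highest young library was above the lowest old one, and the difference of 0.35 ± 0.12 (log2, SE; edgeR adjusted p = 0.0317) was not called under DESeq2 (log2 difference 0.38, adjusted p = 0.0556). Wipi2, the family member that recruits ATG16L1, averaged 29.9 ± 2.94 CPM in old and 27.6 ± 0.873 CPM in young libraries, a log2 difference of 0.12 (adjusted p = 0.291). The scramblase gene Atg9a differed by 0.23 and the lipid transfer genes Atg2a and Atg2b by 0.03 and -0.16 on the log2 scale, with adjusted p-values of 0.188, 0.882 and 0.106. Young replicate 1 had 14.7 CPM of Atg9a, against 9.76 and 8.98 CPM in the other young libraries.

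In the conjugation system, the genes of the ATG12, ATG5 and ATG16L1 complex, which acts as the E3-like enzyme that sets where ATG8 proteins are lipidated, differed with age in opposite directions. Atg12 encodes the ubiquitin-like protein of the complex. Atg12 (ENSMUSG00000032905, chromosome 18, 46730144 to 46741580) had 137, 138 and 144 CPM in treated old libraries, 138, 141 and 137 CPM in old libraries and 99.5, 99.9 and 99.6 CPM in young libraries. The young libraries differed from each other by less than 1 CPM, all old libraries stood well above them, and the difference of 0.48 ± 0.045 (log2, SE; edgeR adjusted p = 4.39e-08) had the smallest p-value of any member. Atg5 encodes the protein to which ATG12 is joined. Atg5 (ENSMUSG00000038160, chromosome 10, 44268358 to 44364291) had 62.3, 57.0 and 60.8 CPM in treated old libraries, 56.1, 59.8 and 62.7 CPM in old libraries and 48.0, 51.9 and 47.8 CPM in young libraries. Old libraries were all above young ones, with a difference of 0.27 ± 0.06 (log2, SE; edgeR adjusted p = 0.0012). Atg16l1, which holds the complex on the membrane, was lower in old libraries. Atg16l1 (ENSMUSG00000026289, chromosome 1, 87755870 to 87792428) had 27.3, 28.1 and 29.7 CPM in treated old libraries, 25.7, 29.3 and 27.1 CPM in old libraries and 36.2, 41.8 and 37.1 CPM in young libraries. Both old groups lay below the young libraries without overlap, and the age difference was -0.48 ± 0.074 (log2, SE; edgeR adjusted p = 3.11e-05). Atg3, the E2-like enzyme for ATG8 proteins (ENSMUSG00000022663, chromosome 16, 45158785 to 45188538), averaged 131 ± 1.18 CPM in old and 114 ± 3.11 CPM in young libraries, a difference of 0.21 ± 0.047 (log2, SE; edgeR adjusted p = 0.00145). Atg7, the E1-like enzyme for both ATG8 proteins and ATG12, had 20.2, 21.0 and 18.3 CPM in treated old libraries, 19.3, 21.6 and 19.1 CPM in old libraries and 19.9, 18.1 and 18.3 CPM in young libraries. Its groups overlapped, and its difference of 0.09 ± 0.084 (log2, SE; edgeR adjusted p = 0.402) had an interval of -0.08 to 0.27. Atg10, the E2-like enzyme for ATG12, averaged 26.5 ± 1.07 CPM in old and 29.1 ± 3.59 CPM in young libraries (log2 difference -0.13, adjusted p = 0.224).

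The ATG4 proteases cut ATG8 proteins before lipidation and free them from lipid afterwards. Atg4a (ENSMUSG00000079418, chromosome X, 140956907 to 141164270) had 25.1, 23.1 and 25.6 CPM in treated old libraries, 25.9, 28.0 and 26.9 CPM in old libraries and 18.3, 19.1 and 17.3 CPM in young libraries. Both old groups were above the young libraries, with a difference of 0.56 ± 0.076 (log2, SE; edgeR adjusted p = 5.86e-06), while the other ATG4 genes, Atg4b, Atg4c and Atg4d, differed by 0.18, 0.15 and 0.10 with adjusted p-values of 0.0661, 0.25 and 0.46. Atg4a is X-linked, and 60.8% of its 31-base words also occur in the pseudogene Atg4a-ps. Atg4a-ps had 0.225 CPM in treated old, 0.176 CPM in old and 0.203 CPM in young libraries. Nothing in the labels says how the authors' counting shared such reads, so the level of Atg4a is uncertain to that extent.

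Of the ATG8 genes, 1 of 5 passed the threshold, and it was lower. Gabarapl1 (ENSMUSG00000030161, chromosome 6, 129533160 to 129542346) had 6.44, 8.25 and 7.29 CPM in treated old libraries, 5.65, 6.32 and 7.65 CPM in old libraries and 10.2, 11.03 and 9.67 CPM in young libraries. All 6 old libraries, treated or not, were below all 3 young ones, and old minus young was -0.66 ± 0.13 (log2, SE; edgeR adjusted p = 0.000416), the most negative value of any member. Map1lc3b, whose lipidated protein is the usual marker of autophagosomes, had 447, 461 and 429.9 CPM in treated old libraries, 425, 399.6 and 425 CPM in old libraries and 403, 373 and 390.2 CPM in young libraries. The lowest old library was below the highest young one, and the difference of 0.10 ± 0.045 (log2, SE; edgeR adjusted p = 0.0829) missed the threshold, although it passed under 7 of 18 alternatives, DESeq2 among them (adjusted p from 0.00892 to 1 over all 18). Gabarapl2 (GATE-16) had 116, 114 and 117 CPM in treated old libraries, 105, 111 and 115 CPM in old libraries and 108, 115 and 121 CPM in young libraries. Its groups overlapped (log2 difference -0.06, adjusted p = 0.394). Gabarap averaged 273 ± 8.51 CPM in old and 260.2 ± 6.25 CPM in young libraries and Map1lc3a 11.4 ± 2.00 CPM in old and 9.06 ± 1.57 CPM in young libraries, with log2 differences of 0.07 and 0.32 and adjusted p-values of 0.232 and 0.0687.

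**Figure D3:**
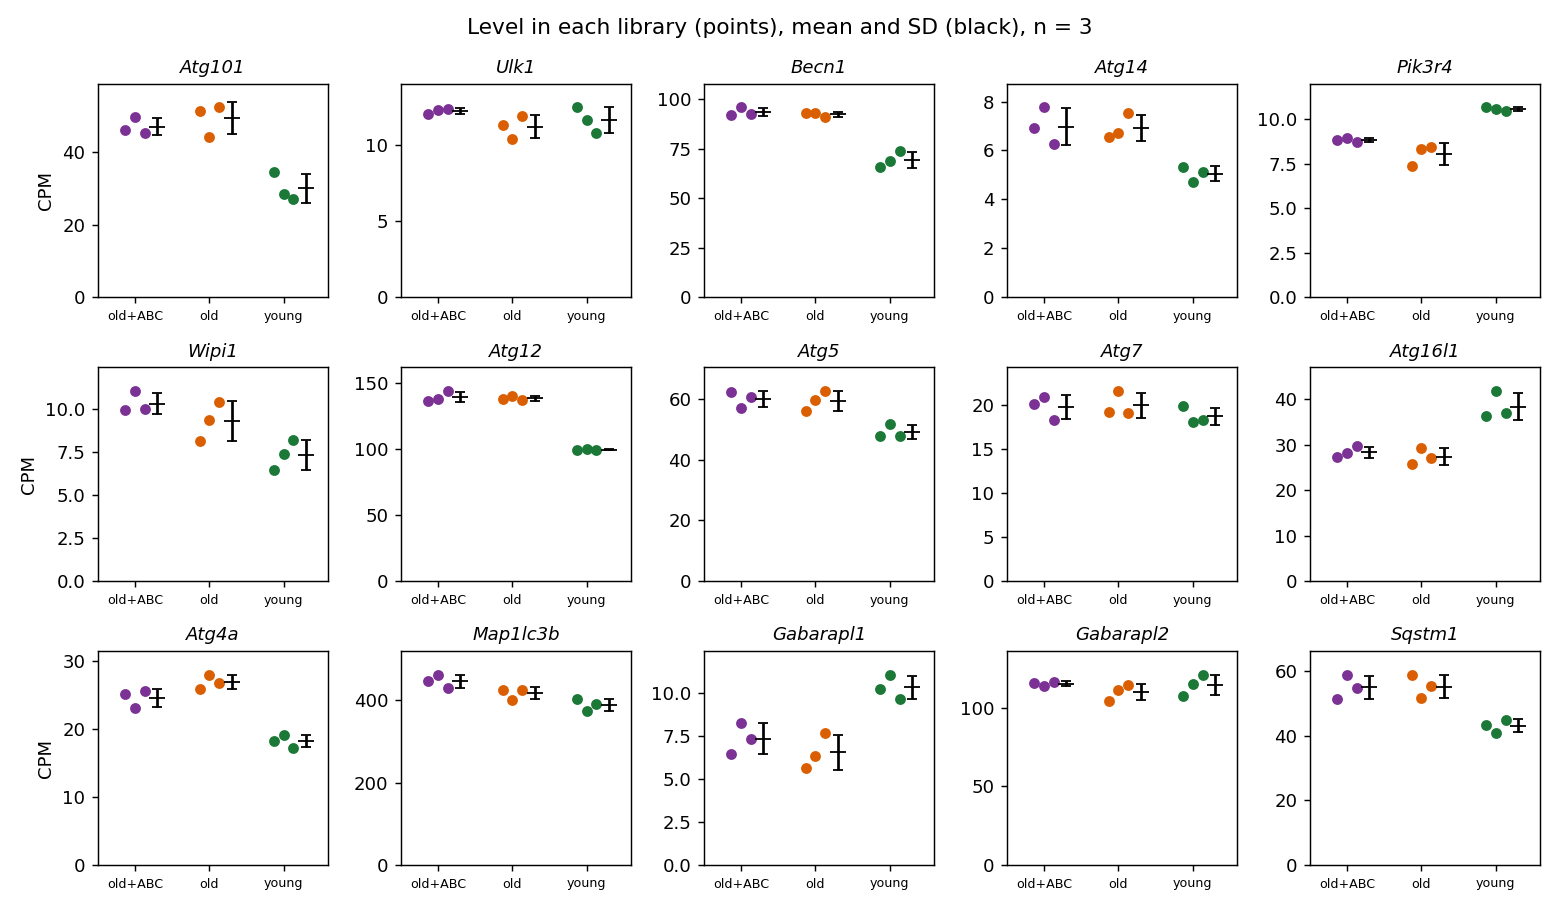
Level in CPM (vertical axes, from 0) of 15 genes in each treated old (old+ABC), old and young library, with the mean and SD of 3 libraries in black. Atg101, Becn1, Atg12 and Atg4a were higher and Atg16l1 and Gabarapl1 lower in both old groups than in young libraries, while the treated and untreated old groups overlap or nearly touch in most panels.

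Cargo receptors tie cargo to ATG8 proteins, and 3 of 6 were higher in old libraries. Sqstm1 encodes p62, which binds ubiquitinated cargo. Sqstm1 (ENSMUSG00000015837, chromosome 11, 50199366 to 50210827) had 51.5, 58.8 and 55.0 CPM in treated old libraries, 58.9, 51.6 and 55.5 CPM in old libraries and 43.4, 41.0 and 45.0 CPM in young libraries. The old libraries all exceeded the young ones, with a difference of 0.36 ± 0.065 (log2, SE; edgeR adjusted p = 0.000221). Bnip3 and Bnip3l encode receptors on the mitochondrial outer membrane, and BNIP3L (NIX) is known for clearing mitochondria from maturing red cells. Bnip3 (ENSMUSG00000078566, chromosome 7, 138890836 to 138909519) averaged 53.0 ± 1.90 CPM in old and 43.9 ± 2.95 CPM in young libraries, a difference of 0.27 ± 0.061 (log2, SE; edgeR adjusted p = 0.00137). Bnip3l (ENSMUSG00000022051, chromosome 14, 66985239 to 67008877) averaged 213 ± 1.54 CPM in old and 195 ± 5.75 CPM in young libraries, a difference of 0.13 ± 0.045 (log2, SE; edgeR adjusted p = 0.0265) that did not pass under the stricter filter (adjusted p = 0.13). Of the 9 erythroid markers tested, 1 was higher and 7 were lower in old libraries, and their part in these values was not tested. The receptor genes Nbr1, Optn and Calcoco1 had log2 differences of 0.04, -0.18 and -0.07 with adjusted p-values of 0.754, 0.135 and 0.678, although the old libraries lay wholly below the young ones for Optn. Sqstm1 exons overlap Mrnip, a gene with 24.9 CPM in old and 24.6 CPM in young libraries and no call, and the sources used here do not say whether counting used strand.

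Across all genes, longer transcripts tended to be lower in old libraries, with a median log2 difference of -0.188 over genes of at least 6865 bases and -0.0715 over the equally many shortest genes. When that trend was removed, 14 members were higher and 3 lower in old libraries, while over all genes 3230 were higher and 2447 lower, against 2788 and 2818 with the trend kept. Without genes on the sex chromosomes, the calls of the 36 remaining members stood as they were. That run only leaves out rows and keeps the same libraries, so it cannot separate age from sex.

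Promoter sequences were examined for the E-box CACGTG, which reads the same on both strands and is the core of sites bound by the autophagy and lysosome regulator TFEB, and for the FoxO motif GTAAACA on both strands. RefSeq windows (GRCm38.p6) of 250 bases before to 50 after the start were held for 30 members. Not covered were Atg12, Atg16l1, Becn1, Bnip3l, Map1lc3a, Pik3c3 and Rb1cc1. The E-box occurred in 5 of the 30 (Atg3, Atg5, Atg7, Atg14 and Bnip3), against 8.09% of all 27025 genes with a window, whether tested here or not. Of the members higher in old libraries it occurred in 4 of 8 with a window, of the lower ones in 0 of 2, and of those not called in 1 of 20, which is a description of few genes. The same shares were not counted over all higher, lower and uncalled genes, and whether the E-box goes with the age calls was not tested. The longer palindrome TCACGTGA, which contains the E-box, was found in Atg3 alone of the members and in 1.12% of genes. The FoxO motif was in 0 of 30 members and 4.05% of genes. A match marks letters and not a bound site. The windows of the higher genes Atg3, Atg5 and Bnip3 are shown to place the motif, in lower case 5′ to 3′ with the E-box in capitals, and end before the annotated gene. They lie at chr16:45158579-45158784 (plus strand), chr10:44268089-44268338 (plus strand) and chr7:138909520-138909756 (minus strand).
Atg3: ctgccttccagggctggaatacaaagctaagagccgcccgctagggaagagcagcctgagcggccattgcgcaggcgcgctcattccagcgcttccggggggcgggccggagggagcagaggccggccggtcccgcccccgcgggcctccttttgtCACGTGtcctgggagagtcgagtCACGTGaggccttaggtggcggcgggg
Atg5: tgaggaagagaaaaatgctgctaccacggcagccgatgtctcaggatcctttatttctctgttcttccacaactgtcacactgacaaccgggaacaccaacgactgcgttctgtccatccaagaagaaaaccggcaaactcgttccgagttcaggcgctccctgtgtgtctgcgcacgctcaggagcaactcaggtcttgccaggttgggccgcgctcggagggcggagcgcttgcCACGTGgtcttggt
Bnip3: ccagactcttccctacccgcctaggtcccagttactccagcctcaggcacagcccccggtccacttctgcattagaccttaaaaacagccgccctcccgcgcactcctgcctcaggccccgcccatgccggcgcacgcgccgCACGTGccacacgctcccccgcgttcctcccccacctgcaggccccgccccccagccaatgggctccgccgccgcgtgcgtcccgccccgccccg
Atg3 holds a pair of E-boxes, the one nearer the gene being part of the longer palindrome, starting 94 and 71 bases before the RefSeq start site. The E-box of Atg5 starts 14 bases and that of Bnip3 108 bases before it.

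The comparison of treated old with old HSCs asks what the inhibitor does to these genes. No member passed the threshold by edgeR, against 1.19% of all genes tested, and DESeq2 called 0 of the 29 members to which it gave an adjusted p. At an unadjusted p under 0.05 there were 4 members, Ambra1, Map1lc3b, Atg2b and Atg3, against 8.83% of all genes. The 95% intervals of all 37 members lay between -0.38 (Map1lc3a) and 0.51 (Ambra1) on the log2 scale, that is, between 0.77-fold and 1.43-fold, and 36 had both bounds within 0.5 of 0. The median log2 difference was 0.01, and the median interval reached 0.18 to either side.

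The smallest p was that of Ambra1, which averaged 9.57 ± 0.149 CPM in treated old and 7.99 ± 0.945 CPM in old libraries, a difference of 0.26 ± 0.12 (log2, SE; edgeR adjusted p = 0.521). Map1lc3b averaged 446 ± 15.6 CPM in treated old and 417 ± 14.8 CPM in old libraries, a difference of 0.10 ± 0.045 (log2, SE; edgeR adjusted p = 0.535). Atg2b averaged 20.9 ± 0.557 CPM in treated old and 18.6 ± 1.10 CPM in old libraries, a difference of 0.17 ± 0.08 (log2, SE; edgeR adjusted p = 0.556). For Ambra1, Map1lc3b and Atg2b, and for Ulk1 and Pik3r4, the treated libraries lay wholly above the untreated ones, and for Atg4a and Atg3 wholly below. This separation in 5 and 2 of 37 members compares with 8.34% and 7.13% of all genes. Atg3 averaged 122 ± 4.36 CPM in treated old and 131 ± 1.18 CPM in old libraries, a difference of -0.10 ± 0.047 (log2, SE; edgeR adjusted p = 0.556). The 6 members whose age calls held under every alternative run for them had log2 values of -0.07 (Atg101), -0.13 (Atg4a), 0.01 (Atg12), 0.02 (Becn1), 0.05 (Atg16l1) and 0.17 (Gabarapl1) between treated old and old libraries. Their intervals were -0.24 to 0.11, -0.29 to 0.03, -0.08 to 0.10, -0.09 to 0.13, -0.11 to 0.21 and -0.12 to 0.45. None of these intervals reached the point value of the gene's age difference in the opposite direction, but each age difference has an interval of its own. Among these 6 members, only for Gabarapl1 did the 2 intervals overlap in size, as its age interval ran from -0.93 to -0.39. The old libraries enter both differences, and whether treatment reverses an age difference was not tested.

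Treated old HSCs were also compared with young ones. In that comparison 11 members were higher and 2 lower, 35.1% of the 37 against 37.6% of all genes (19.1% higher, 18.5% lower). The higher members were those of the untreated comparison with Map1lc3b in place of Atg3, and the lower ones were Atg16l1 and Gabarapl1. Treated old libraries lay wholly above the young ones for 13 members and wholly below for 4, against 23.7% and 24.7% of all genes. Both comparisons share the young libraries, so their likeness is not independent evidence. Map1lc3b had 0.20 ± 0.045 (log2, SE; edgeR adjusted p = 0.0017) in treated old minus young and 0.10 in old minus young. Atg3 had 0.11 ± 0.047 (log2, SE; edgeR adjusted p = 0.0735), against 0.21 in old minus young. Pik3r4 had -0.26 ± 0.1 (log2, SE; edgeR adjusted p = 0.0532), against -0.39 in old minus young. Wipi1 had 0.49 ± 0.12 (log2, SE; edgeR adjusted p = 0.00355), against 0.35 in old minus young, and here the treated old libraries did not overlap the young ones. Atg101, Becn1, Atg12, Atg4a, Atg16l1 and Gabarapl1 had log2 differences of 0.65, 0.43, 0.49, 0.44, -0.43 and -0.49 in treated old minus young. Without young replicate 1 there were 13 higher and 4 lower members, with Atg9a and Atg4b added above and Rb1cc1 and Atg10 below. Of 14353 genes tested in that run, 2846 were higher and 2553 lower. For Map1lc3b, Atg3, Pik3r4 and Wipi1 the direct difference between treated old and old libraries did not pass the threshold.

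Genes that act with the machinery were counted in the same fit. Of 13 other genes of autophagosome formation, 5 were higher and 2 lower in old than in young libraries. Rab1a, a GTPase of membrane traffic from the endoplasmic reticulum, averaged 211 ± 7.05 CPM in old and 169 ± 6.49 CPM in young libraries (log2 difference 0.32, edgeR adjusted p = 1.45e-05). Tmem41b, a lipid scramblase, averaged 34.7 ± 1.56 CPM in old and 26.9 ± 0.135 CPM in young libraries (log2 difference 0.37, edgeR adjusted p = 0.00026). The lower genes included a membrane-bending partner of beclin 1. Sh3glb1, which encodes it, averaged 46.2 ± 0.564 CPM in old and 56.7 ± 1.77 CPM in young libraries (log2 difference -0.29, edgeR adjusted p = 0.000544). Of 14 other receptors and mitophagy genes, 7 were higher and 0 lower, among them Ncoa4, the receptor that carries ferritin to the lysosome. Ncoa4 averaged 225 ± 5.33 CPM in old and 148 ± 4.17 CPM in young libraries (log2 difference 0.61, edgeR adjusted p = 1.3e-09). Rtn3, a receptor for endoplasmic reticulum, averaged 377 ± 2.82 CPM in old and 292 ± 6.81 CPM in young libraries (log2 difference 0.37, edgeR adjusted p = 4.87e-07). Tax1bp1, a ubiquitin-binding receptor, averaged 292 ± 16.0 CPM in old and 234 ± 10.8 CPM in young libraries (log2 difference 0.32, edgeR adjusted p = 4.42e-05). Of 14 genes for fusion with the lysosome, 4 were higher and 0 lower. Vps41, a subunit of the HOPS tether, averaged 47.4 ± 2.02 CPM in old and 39.6 ± 2.63 CPM in young libraries (log2 difference 0.26, edgeR adjusted p = 0.00554). Rab7, the GTPase of late endosomes, averaged 333 ± 0.831 CPM in old and 302 ± 8.25 CPM in young libraries (log2 difference 0.14, edgeR adjusted p = 0.00951).

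Of 28 genes of mTORC1 and AMPK signalling, the nutrient and energy sensors upstream of ULK1, 5 were higher and 1 was lower in old libraries. That is 21.4% called, against 39.4% of all genes tested. Prkag1, an AMPK subunit, averaged 68.5 ± 1.28 CPM in old and 56.4 ± 3.22 CPM in young libraries (log2 difference 0.28, edgeR adjusted p = 0.000416). Of 8 tested TFEB and FoxO family genes, transcription factors that act on autophagy genes, 1 was higher and 3 were lower. Foxo3, a factor known to drive autophagy genes in mouse HSCs, averaged 40.7 ± 2.04 CPM in old and 52.9 ± 0.208 CPM in young libraries (log2 difference -0.38, edgeR adjusted p = 8.61e-05). Tfec, a relative of TFEB, averaged 48.2 ± 2.31 CPM in old and 38.7 ± 0.254 CPM in young libraries (log2 difference 0.32, edgeR adjusted p = 0.000309). Of 31 lysosome genes, 21 were higher and 2 lower, with a median log2 difference of 0.27. Cd63, a lysosomal membrane protein, averaged 518 ± 10.8 CPM in old and 254 ± 7.14 CPM in young libraries (log2 difference 1.03, edgeR adjusted p = 1.87e-13). Atp6v1a, a subunit of the proton pump, averaged 90.7 ± 0.688 CPM in old and 56.7 ± 3.35 CPM in young libraries (log2 difference 0.68, edgeR adjusted p = 2.74e-09). Ctss, a protease, averaged 22.4 ± 2.10 CPM in old and 47.0 ± 1.87 CPM in young libraries (log2 difference -1.06, edgeR adjusted p = 5.16e-10). Of these 3 lysosome genes, only Ctss was lower in old libraries. Of the lysosome genes 74.2% were called, against 37.8% of the members and 39.4% of all genes tested, in libraries that also differed in the granulocyte markers given above. The difference between the lists was not tested.

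Between treated old and old libraries, 0 genes of these 6 lists passed the threshold, against 1.19% of all genes tested. At an unadjusted p under 0.05 there were 8.83% of all genes. The smallest adjusted p was 0.0651, for Lamtor5, an mTORC1 anchor gene with 249 ± 12.0 CPM in treated old and 215 ± 14.2 CPM in old libraries (log2 difference 0.21). Vamp8, a SNARE protein of fusion, averaged 704 ± 20.9 CPM in treated old and 637 ± 35.1 CPM in old libraries (log2 difference 0.15, edgeR adjusted p = 0.297). At an unadjusted p under 0.05 there were 1 of 13 formation genes, 2 of 14 receptor and mitophagy genes, 1 of 14 fusion genes, 2 of 28 signalling genes, 0 of 8 transcription factors and 0 of 31 lysosome genes. Between treated old and young libraries, the lists had 5 higher and 2 lower (formation), 7 and 1 (receptors and mitophagy), 6 and 0 (fusion), 5 and 2 (mTORC1 and AMPK), 1 and 1 (TFEB and FoxO) and 20 and 2 (lysosome). Of all genes tested, 19.1% were higher and 18.5% lower in that comparison.

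**Figure D4:**
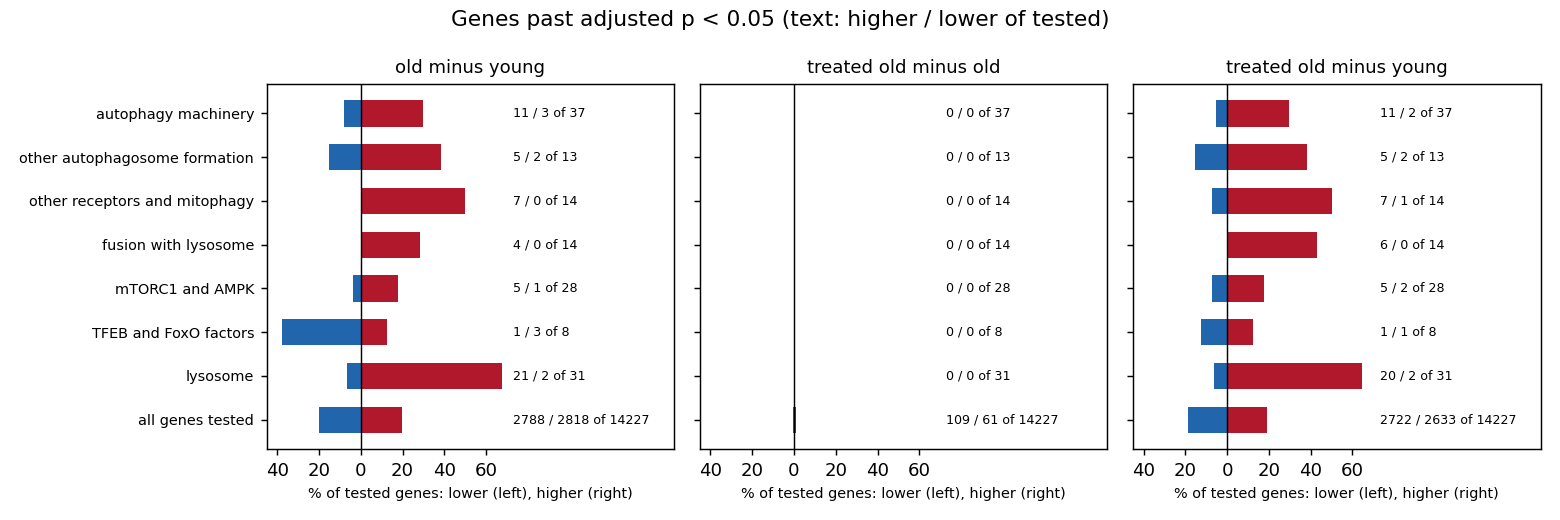
Percent of tested genes past an adjusted p of 0.05 in the autophagy machinery, 6 lists of related genes and all genes tested, with lower genes to the left of 0 and higher genes to the right, in old minus young, treated old minus old and treated old minus young comparisons. The lysosome list has the longest bar to the right (21 of 31 in old minus young), and the middle panel is empty for all lists of autophagy and lysosome genes.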

How the data were processed

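The deposited table holds estimated counts of reads per gene (expected counts that need not be whole) in 9 libraries. Of its non-zero values 56% were whole within 1e-06. Per the submitters' processing notes, the authors used HTSeq 0.10.0, STAR 2.6.1d, edgeR 3.24.3, Trim Galore 0.6.2 and the build mm10; no step that would give fractions is named. Groups and replicate numbers came from the sample labels.

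Values were rounded and tested with edgeR 4.0.16 (R 4.3.3; TMM, default filter by group, quasi-likelihood test), fitting the 9 libraries together by group without covariates. Of 23317 rows, 14227 were tested. A gene was called at p under 0.05 after Benjamini-Hochberg adjustment over these. The test was also run on simulated counts in which far fewer genes differed than here, which is no support for the calls. Intervals are 95% intervals of the fit. Since amplified reads without molecular identifiers are not independent molecules, counting error is not the only error of a level. Positions and transcript lengths are those of GENCODE M21 (GRCm38), which held every identifier. Python 3.11.15 was used for the rest. The members, lists, naming rule and alternatives were chosen with earlier results of these data known. Values per library are given for the 5 largest rises and falls past the threshold in each comparison with at least 5 CPM, and for Ulk1, Becn1, Atg5, Atg7, Map1lc3b, Gabarapl2 and Sqstm1. Atg9a of young replicate 1 was singled out after its values were seen. Alternatives were RLE size factors, DESeq2 1.42.0, no filter, at least 5 CPM in 3 libraries, the 2 groups alone, a replicate block, a test against a fold of 1.2 (glmTreat) and leaving out each library. Removing sex chromosome genes or the transcript length trend was added after seeing the data.

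Marker lists of T and NK cells (1 higher and 1 lower of 6 tested in old against young), B and plasma cells (2 and 2 of 7), erythroid cells (1 and 7 of 9), megakaryocytes (0 and 5 of 7) and stroma and endothelium (0 and 4 of 7) were counted in the same fit, as were the 10 HSC markers (1 and 5). Of all genes tested, 19.6% were higher and 19.8% lower in old against young.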

Additional observations from a re-analysis of the deposited data

How the results depend on the processing

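Across 18 alternatives no called member changed direction in any of the 3 comparisons. In old against young HSCs, 6 of 14 calls held under all of them run for the gene (Atg101, Becn1, Atg12, Atg16l1, Gabarapl1 and, under 17, the X-linked Atg4a, which has no value without sex chromosome genes) and 12 held apart from the test against a fold of 1.2, under which 4 members were higher. Besides, Wipi1 was lost under DESeq2, the stricter filter of 5 CPM and without young replicate 1, young replicate 2, old replicate 2 or old replicate 3, and Bnip3l under the stricter filter, which left 5 members lower. In treated old against young HSCs, 5 of 13 calls held under all alternatives run for the gene (17 for Atg4a) and 12 apart from the fold test. Bnip3l was lost under the stricter filter and without treated old replicate 1. Under the fold test 4 members were higher and 1 was lower, against 801 and 1386 of all 14227 genes. The stricter filter gave 4 lower, against 1732 lower of 9670 genes tested. The cause of these moves was not tested. Leaving out each library in turn gave 10 to 14 higher and 3 to 5 lower members in old against young, 0 in treated old against old, and 11 to 13 higher and 2 to 4 lower in treated old against young. The calls in treated old against old stayed at 0 in all 18. Same-numbered libraries correlated between -0.081 and 0.132 in their deviations, and 1 of 9 pairs was over 0.1. Differently numbered libraries correlated between -0.096 and 0.072. Between old and young, same-numbered pairs had 0.063, 0.132 and 0.064, above every differently numbered pair (-0.096 to 0.035). Same-numbered pairs that held a treated library were all negative (-0.081 to -0.02). These correlations are weak, and whether the numbers pair the libraries cannot be told from them. With the replicate block, 12 members were higher and 3 lower in old against young, 0 differed in treated old against old, and 11 were higher and 2 lower in treated old against young. Intervals of members with few counts reached up to 0.29 (log2) to either side, so smaller changes there could be missed, and larger ones too after adjustment. Map1lc3a, at 0.32 in old minus young, was not called (edgeR adjusted p = 0.0687).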
